A study of Saccharomyces cerevisiae with 15 samples.

Results

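The comparison described here is between the strongest and the weakest of 3 graded expression levels of gcn5-F221A, a dominant and catalytically inactive allele of the histone acetyltransferase gene GCN5, in Saccharomyces cerevisiae S288C (MATα). It covers 6 of the 15 Affymetrix Yeast 2.0 arrays of the series, chosen by their labelled promoter strength: 3 arrays of the strain labelled TEF5-GCN5 F221A, at a strength of 0.95 relative to the TEF promoter, and 3 arrays of the strain labelled TEF3-GCN5 F221A, at a strength of 0.32. All 5449 S. cerevisiae genes with a named probe set were compared. Both strains kept the native GCN5 gene and carried the mutant gene on a centromeric p416 plasmid with a G418 resistance gene, so they differ by the mutant TEF promoter in front of the plasmid copy. The other 9 arrays, 3 each from wild-type with a control plasmid, from the strain labelled TEF11-GCN5 F221A at a strength of 0.68, and from a gcn5 null strain with the control plasmid, in which a hygromycin resistance gene replaced GCN5, entered the estimate of the spread and are given as reference levels. Cultures in minimal glucose medium with 200 µg/mL G418 were inoculated to an OD of 0.0045 and collected once it reached 0.4 to 0.5, and each strain was measured in biological triplicate. What separates the replicates beyond that is not given, so p-values measure the spread between these cultures.

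Gcn5p is the acetyltransferase of the SAGA and ADA complexes, which acetylate lysines in the tail of histone H3 at promoters and help to recruit the transcription machinery. SAGA is best known for its part at inducible genes, among them stress, nutrient uptake and carbon source genes. The F221A protein can enter these complexes but lacks catalytic activity, so that more of it leaves a smaller share of complexes with a working enzyme.

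GCN5 itself followed the labels. Its log2 signal was 11.53, 11.56 and 11.43 on the 3 arrays at 0.32 and 13.20, 13.11 and 13.08 on those at 0.95. The strengths did not overlap, and the level was 3.09-fold higher at 0.95 (log2 difference 1.63, standard error 0.08, adjusted p = 2.98e-07 by limma). The probe set reads the native and the mutant gene together, and its mean of 3 arrays was 8.92 in wild-type and 5.78 in gcn5 null cells. Of the 23 measured genes for subunits of SAGA and its relatives, GCN5 was the 1 that passed the test (4.35%, against 0.661% of all genes higher). ADA2, which encodes the adaptor that binds Gcn5p, differed by 0.02 on the log2 scale (adjusted p = 0.926), and TRA1, the activator-binding subunit, by -0.23 (adjusted p = 0.109).

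The alpha mating type was visible in both strains. The 5 alpha-specific genes had a mean log2 signal between 11.88 and 12.50 on the 6 arrays, among them STE3, the a-factor receptor, with means of 9.70 at 0.32 and 9.62 at 0.95. The 7 genes specific to a cells lay between 6.80 and 7.36, where STE2, the alpha-factor receptor, had means of 7.22 and 6.99. None of the genes on either list passed the test, against 1.91% of all genes.

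Between the strengths, 104 of 5449 genes passed the test at an adjusted p under 0.05 (1.91%), of which 36 were higher at 0.95 (0.661%) and 68 were lower (1.25%). All 104 had arrays that did not overlap between the strengths, as did 23.2% of all genes tested (10.5% higher and 12.7% lower at 0.95). Called rises ran from 0.32 to 1.64 on the log2 scale with a median of 0.64, and called falls from -0.30 to -1.51 with a median of -0.61. Over 2-fold changes were few, with 13 genes (0.239%), 5 higher and 8 lower. Among called genes, those with the largest rises after HXT5 and GCN5 were NCE103, a carbonic anhydrase, YNL194C, a plasma membrane protein, and COS12, an endosomal protein of the COS family, and those with the largest falls were IZH4, YMR230W-A, OLE1 and SPS1. An unadjusted p under 0.05 was reached by 915 genes. In RNA from a whole culture, fewer cells expressing a gene and less of its RNA per cell cannot be told apart.

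**Figure D1:**
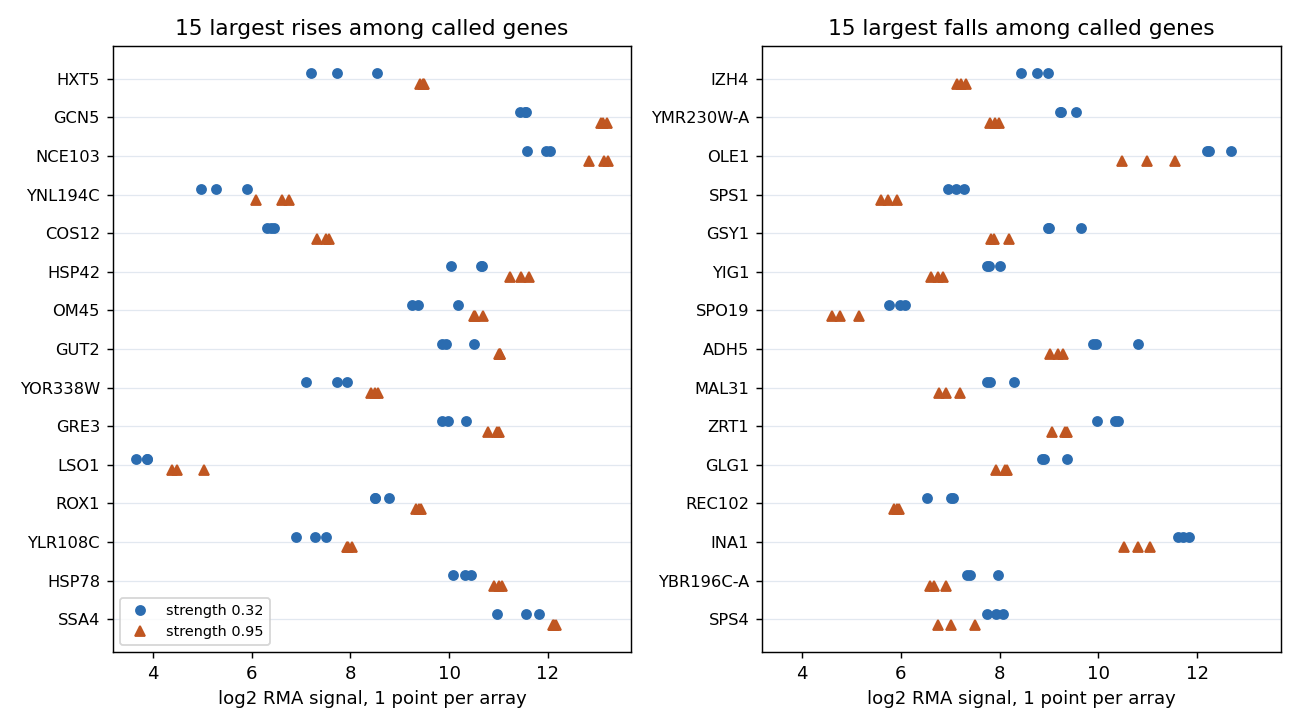
Log2 RMA signals of the 15 called genes with the largest rises (left) and the 15 with the largest falls (right), with 1 point per array (circles, strength 0.32; triangles, strength 0.95). The arrays of the strengths are separate in each gene, and HXT5 spreads from 7.21 to 8.54 at 0.32 but only from 9.41 to 9.49 at 0.95, whereas OLE1 spreads most at 0.95, from 10.47 to 11.55.

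The arrays of 0.32 were less alike than those of 0.95. Correlations between replicate arrays over all genes were 0.981 to 0.995 at 0.32 and 0.988 to 0.997 at 0.95, and 0.32 replicate 3 stood apart from both other arrays of its strain (0.984 and 0.981). The signal at the 5′ end minus that at the 3′ end of 7 yeast control genes, a measure of RNA integrity, was -3.77, -3.77 and -4.47 on the arrays at 0.32 and -3.87, -3.60 and -3.19 at 0.95, lowest on the same replicate 3. The part of this in the results was not tested. Without 0.32 replicate 3, 42 genes passed (17 higher and 25 lower), 39 of them among the 104. The test takes its spread from all 15 arrays, and with only the 6 compared arrays in the fit 6 genes passed. Leaving out 1 of the 15 arrays at a time gave between 32 genes (without 0.95 replicate 2) and 299 genes (without 0.68 replicate 1). In all 15 such fits 28 of the 104 genes passed, 9 higher and 19 lower. The array 0.68 replicate 1 enters only the spread, and without it the median residual SD was 0.138, against 0.156 with all 15 arrays.

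Of the 30 gene lists described, molecular chaperones had the largest share of rises. Of 33 measured heat shock protein and chaperone genes, 10 were higher at 0.95 (30.3%, against 0.661% of all genes) and 0 lower. Their median log2 difference was 0.37 against -0.001 over all genes. HSP42, a small heat shock protein that gathers misfolded proteins, had log2 signals of 10.66, 10.65 and 10.04 at 0.32 and 11.23, 11.45 and 11.62 at 0.95. Every array at 0.95 lay above every array at 0.32, with replicate 3 of 0.32 the lowest (log2 difference 0.98, standard error 0.16, adjusted p = 0.00905), and the call was lost in 1 of 15 fits that left out 1 array (adjusted p = 0.0512 without 0.95 replicate 3). HSP78, the mitochondrial disaggregase, went from 10.32, 10.43 and 10.07 to 11.01, 11.06 and 10.91, again without overlap (0.72, standard error 0.10, adjusted p = 0.0034). SSA4, a stress-inducible Hsp70, went from 11.56, 11.82 and 10.96 to 12.12, 12.16 and 12.09. Its arrays at 0.95 were nearly level and those at 0.32 were spread by replicate 3 (0.68, adjusted p = 0.0493), and the call was lost in 13 of 15 fits that left out 1 array, with an adjusted p of up to 0.163 without 0.95 replicate 2.

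HCH1, an activator of Hsp90, rose by 0.64 (adjusted p = 0.039), though its call was lost in 9 of 15 fits that left out 1 array (up to adjusted p = 0.143 without 0.95 replicate 2). AHA1, the related co-chaperone, was named after its values were seen, as were the other chaperone genes that follow. It had 9.43, 9.40 and 9.44 at 0.32 against 10.08, 10.12 and 9.95 at 0.95, close together within each strength and separate between them (0.63, standard error 0.07, adjusted p = 0.000748). STI1, which links Hsp70 to Hsp90, differed by 0.54 (adjusted p = 0.00583), CPR6, a cyclophilin of the same complexes, by 0.48 (adjusted p = 0.00369) and HSP82, the inducible Hsp90 gene, by 0.62 (adjusted p = 0.016, held in 11 of 15 fits). HSC82, the constitutive Hsp90 gene, did not pass at 0.06 (adjusted p = 0.59), nor did SSB1, a ribosome-associated Hsp70, at -0.01 (adjusted p = 0.923). HSP26, another small heat shock protein, had the largest difference of the list at 1.65 but did not pass (adjusted p = 0.1). Fits that left out 1 array gave 5 to 14 called chaperone genes, all higher, with 6 without 0.32 replicate 3 and 14 without 0.68 replicate 1.

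Genes that the transcription factors Msn2p and Msn4p induce under stress lay higher at 0.95 as a list, but few passed singly. Of 59 measured, 6 were higher (10.2%, against 0.661% of all genes) and 0 lower, among them HSP42, HSP78 and SSA4, which are also on the chaperone list. Of the differences 55 were above 0, and the median was 0.73. Arrays were separate in the higher direction in 31 of the 59 genes, a larger share than the 10.5% of all genes. The mean log2 signal over the list was 10.26, 11.02 and 10.10 on the arrays at 0.32 and 11.08, 11.25 and 11.23 at 0.95. Replicate 2 of 0.32 thus lay closer to the arrays at 0.95 than to the other arrays of its own strain. TFS1, an inhibitor of carboxypeptidase Y, shows the pattern, with 11.34, 12.56 and 10.20 at 0.32 and 12.99, 13.03 and 12.82 at 0.95. It did not pass at a difference of 1.58 (95% interval 0.59 to 2.57, adjusted p = 0.106). TKL2, a transketolase of the pentose phosphate pathway, had 7.85, 9.96 and 6.66 at 0.32 and 9.23, 9.78 and 9.79 at 0.95, so that replicate 2 of 0.32 was the highest of the 6 arrays (adjusted p = 0.247). SIP18, a protein of desiccation tolerance that is not on this list, differed by 1.43 (adjusted p = 0.219). It had the same order at 0.32, where its arrays read 9.51, 11.18 and 9.03. Leaving out 1 array at a time gave 2 to 23 genes higher and 0 lower. Without 0.32 replicate 2 the list had 23 higher and a median of 0.94, without 0.68 replicate 1 it had 20 higher, and without 0.32 replicate 3 it had 3 higher and a median of 0.53. Over all genes, leaving out 0.32 replicate 2 gave 150 calls, 93 higher and 57 lower, so that rises outnumbered falls.

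**Figure D2:**
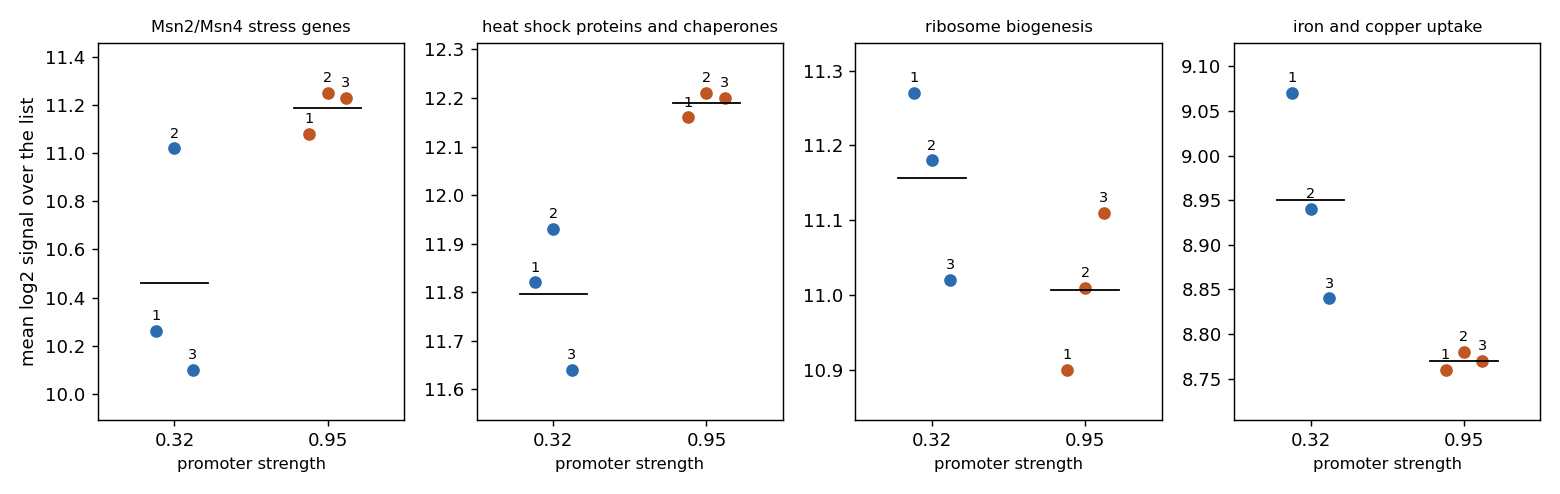
Mean log2 signal over 4 gene lists on each of the 6 arrays (points, numbered by replicate, horizontal bars for the mean of 3 arrays; each panel has its own scale). Replicate 2 of 0.32 reaches 11.02 for Msn2/Msn4 stress genes, near the 11.08 to 11.25 of the arrays at 0.95, while chaperones are separate, at 11.64 to 11.93 against 12.16 to 12.21.

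The stress genes that did pass include NCE103, the carbonic anhydrase named above. Its log2 signal was 11.96, 12.05 and 11.58 at 0.32 and 12.83, 13.14 and 13.21 at 0.95, 2.30-fold higher with no overlap (1.2, standard error 0.13, adjusted p = 0.000758). OM45, a protein of the mitochondrial outer membrane, had 9.25, 10.17 and 9.37 at 0.32 and 10.51, 10.53 and 10.69 at 0.95. Replicate 2 of 0.32 lay nearest the arrays at 0.95 (difference 0.98, adjusted p = 0.0314), and the call was lost in 7 of 15 fits that left out 1 array, reaching an adjusted p of 0.125 without 0.32 replicate 3. GRE3, an aldose reductase, rose by 0.86 (adjusted p = 0.0209), a call lost in 4 of the 15 fits with an adjusted p of up to 0.101 without 0.95 replicate 2. GUT2, the mitochondrial glycerol-3-phosphate dehydrogenase, which is on none of the lists, had 9.94, 10.51 and 9.86 at 0.32 and 11.02, 11.04 and 11.03 at 0.95 (0.93, adjusted p = 0.0209). Its arrays at 0.95 were nearly level, and the call was lost in 5 of 15 fits (up to adjusted p = 0.0945 without 0.95 replicate 2).

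All 16 measured genes of the tricarboxylic acid cycle, which oxidises acetyl groups in mitochondria, had differences above 0, with a median of 0.36. The 3 that passed, all higher (18.8%, against 0.661% of all genes), encode aconitase and both subunits of the enzyme that follows it. ACO1, the aconitase gene, rose by 0.48 (adjusted p = 0.039). IDH1, a subunit of isocitrate dehydrogenase, had 10.35, 10.31 and 10.67 at 0.32 and 11.23, 11.01 and 11.06 at 0.95 (0.66, adjusted p = 0.026). IDH2, the other subunit, had 11.27, 11.34 and 11.66 at 0.32 and lay between 11.97 and 12.04 on all arrays at 0.95 (0.58, adjusted p = 0.0481). In both subunits replicate 3 was the highest array at 0.32, unlike in HSP42, HSP78 and SSA4. These calls were not stable: ACO1, IDH1 and IDH2 lost theirs in 9, 5 and 12 of 15 fits that left out 1 array. Adjusted p-values reached 0.14 without 0.95 replicate 3, 0.091 without 0.95 replicate 1 and 0.149 without 0.95 replicate 2. For ACO1 and IDH2 the losses included fits without a wild-type or gcn5 null array, which enter only the spread. Differences stayed at 0.40 to 0.52 for ACO1, 0.59 to 0.78 for IDH1 and 0.51 to 0.70 for IDH2. SDH2, a subunit of succinate dehydrogenase, differed by 0.95 and did not pass (adjusted p = 0.0609). Of 44 genes for the respiratory chain and ATP synthase, 41 had differences above 0 with a median of 0.25. ATP3, the gamma subunit of the synthase, was the 1 that passed (2.27% of the list, against 0.661% of all genes higher). It rose by 0.36 (adjusted p = 0.039), and the call was lost in 10 of 15 fits (up to adjusted p = 0.163 without 0.95 replicate 3). PYC1, a pyruvate carboxylase that feeds the cycle, rose by 0.47 from 12.92, 13.07 and 12.96 to 13.48, 13.44 and 13.44 (adjusted p = 0.00605) and passed in all 15 fits that left out 1 array.

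**Figure D3:**
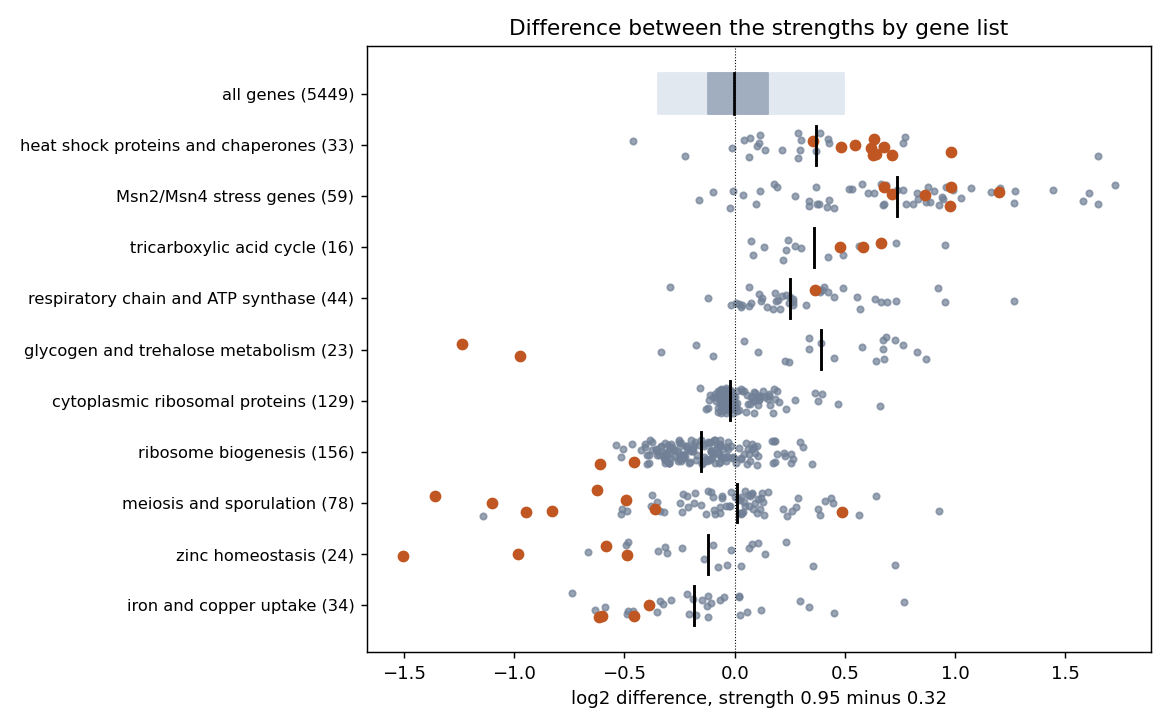
Log2 difference between strength 0.95 and 0.32 for each member of 10 gene lists (points, spread vertically for sight, list size in brackets; orange, adjusted p under 0.05; grey, not passed; black bars, list medians), with called chaperones to the right of 0, called zinc and iron genes to the left, and called meiosis genes to the left but for 1. The top band shows the 5th to 95th percentile (light) and the quartiles, -0.12 and 0.15 (dark), of all 5449 genes.

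Genes of carbohydrate storage and sugar uptake moved in both directions. HXT5, a hexose transporter of moderate affinity, had the largest rise among called genes, from 7.73, 8.54 and 7.21 at 0.32 to 9.41, 9.47 and 9.49 at 0.95 (3.11-fold, log2 difference 1.64, standard error 0.29, adjusted p = 0.0127). Even the highest array at 0.32 lay below all at 0.95, and the call was lost in 2 of 15 fits, with an adjusted p of 0.0631 without 0.95 replicate 2. It was the 1 gene of 22 for hexose transport and glucose sensing that passed (4.55%, against 0.661% of all genes higher). MAL31, the maltose permease, fell from 7.75, 7.81 and 8.30 to 6.77, 7.19 and 6.92 with no overlap (-0.99, standard error 0.14, adjusted p = 0.00328). It was the 1 called gene of 9 for maltose and sucrose use (11.1%, against 1.25% of all genes lower).

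Among 23 glycogen and trehalose genes, 2 were called, both lower (8.7%, against 1.25% of all genes). GSY1, a glycogen synthase, had 8.99, 8.98 and 9.65 at 0.32 and 7.89, 8.19 and 7.84 at 0.95, a fall of 2.36-fold (-1.24, standard error 0.19, adjusted p = 0.00583). GLG1, a glycogenin that primes glycogen, went from 8.87, 8.90 and 9.36 to 8.16, 8.11 and 7.94 (-0.97, standard error 0.15, adjusted p = 0.00583). In both, replicate 3 of 0.32 was the highest array and no arrays overlapped, and both passed in all 15 fits that left out 1 array. Their paralogs did not pass, with differences of 0.69 in GSY2 (adjusted p = 0.148) and 0.23 in GLG2 (adjusted p = 0.517), and the paralogs were not tested against each other. These 2 falls stood against a list in which 18 of 23 differences were above 0 and the median was 0.39, though 0 genes were called higher. Arrays were separate in the higher direction in 11 genes and in the lower in 4, against 10.5% and 12.7% of all genes. Several members, GSY2 among them, are also on the Msn2/Msn4 list. Without 0.68 replicate 1, 7 of the 23 genes passed as higher, and without 0.32 replicate 2, 4 did. ADH5, an alcohol dehydrogenase, fell by 1.05 (adjusted p = 0.0372) and lost the call in 10 of 15 fits (adjusted p = 0.138 without 0.95 replicate 3). It was the 1 called gene of 24 for glycolysis and fermentation (4.17%, against 1.25% of all genes lower). Its value was -0.76 without 0.32 replicate 3, on which it read 10.80 against 9.96 and 9.89 on the others. ICL1, isocitrate lyase of the glyoxylate cycle, fell by 0.46 (adjusted p = 0.0136; 0.0796 without 0.95 replicate 2).

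Of 24 zinc homeostasis genes, 4 were lower at 0.95 (16.7%, against 1.25% of all genes) and 0 higher, although the median of the list was -0.12. IZH4, a membrane protein of zinc metabolism, had the largest fall among called genes, from 8.43, 8.99 and 8.76 to 7.21, 7.14 and 7.32 (2.84-fold lower, log2 difference -1.51, standard error 0.15, adjusted p = 0.00037). More than 1 log2 unit separated the lowest array at 0.32 from the highest at 0.95. ZRT1, the high-affinity zinc transporter, had 10.40, 9.97 and 10.33 at 0.32 and 9.37, 9.32 and 9.06 at 0.95 (-0.98, standard error 0.21, adjusted p = 0.0337; lost in 6 of 15 fits, up to 0.138 without 0.95 replicate 3). ZRT2, the low-affinity transporter, fell by 0.49 (adjusted p = 0.0234; 0.107 without 0.95 replicate 2) and ATG41, an autophagy gene also regulated by zinc, by 0.58 (adjusted p = 0.0337; 0.138 without 0.95 replicate 3). ZAP1, the zinc-responsive activator of this regulon, differed by 0.07 (adjusted p = 0.885). Leaving out 1 array at a time gave 1 to 5 genes of the list lower, with 1 lower without 0.32 replicate 1 and likewise without 0.32 replicate 3, and up to 1 higher, without 0.32 replicate 2 or without 0.68 replicate 1.

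Of 34 iron and copper uptake genes, 4 were lower (11.8%, against 1.25% of all genes) and 0 higher. The median was -0.18. Arrays were separate in the lower direction in 17 of the 34 genes, a larger share than the 12.7% of all genes. FET3, the ferroxidase of high-affinity iron uptake, had 12.07, 11.93 and 11.94 at 0.32 and 11.40, 11.47 and 11.26 at 0.95 (-0.60, standard error 0.07, adjusted p = 0.00141). SIT1, a siderophore transporter, went from 8.0, 8.09 and 8.0 to 7.38, 7.51 and 7.36 (-0.61, standard error 0.09, adjusted p = 0.00369). Both had arrays close together within each strength, no overlap, and calls in all 15 fits that left out 1 array. The metalloreductases FRE6 and FRE2 fell by 0.46 (adjusted p = 0.0277) and 0.39 (adjusted p = 0.039), and lost their calls in 6 and 12 of 15 fits, up to adjusted p-values of 0.111 without 0.95 replicate 2 and 0.145 without 0.32 replicate 3. FTR1, the permease partner of Fet3p, differed by -0.32 (adjusted p = 0.114). Leaving out 1 array at a time gave 2 to 7 genes of the list lower and 0 higher. FRE1, the main surface metalloreductase, had 11.21, 10.17 and 9.41 at 0.32, a spread wider than its difference of 0.05 (95% interval -0.72 to 0.83). LSO1, a small protein linked to the response to iron deprivation, was called higher (0.83, adjusted p = 0.0337), but its signals, 3.67 to 3.89 at 0.32 and 4.39 to 5.03 at 0.95, were all below 5.18. That value is the 95th percentile of the array's probe sets for another yeast, S. pombe, and served as background. The LSO1 call was lost in 9 of 15 fits (up to 0.101 without 0.32 replicate 1).

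Among 42 genes of ergosterol and fatty acid synthesis, 2 were lower (4.76%, against 1.25% of all genes) and 0 higher, with a median of 0.01. OLE1, the fatty acid desaturase that makes the unsaturated chains of yeast membranes, had 12.23, 12.69 and 12.19 at 0.32 and 10.47, 10.99 and 11.55 at 0.95. It was 2.58-fold lower with separate groups and varied more at 0.95 than at 0.32 (-1.37, standard error 0.23, adjusted p = 0.00905). ECM22, a transcription factor of sterol genes, had 8.63, 8.51 and 8.79 at 0.32 and 8.12, 8.0 and 7.94 at 0.95 (-0.62, standard error 0.10, adjusted p = 0.00728). Both passed in all 15 fits that left out 1 array. ROX1, the repressor of hypoxic genes, had 8.50, 8.50 and 8.79 at 0.32 and 9.33, 9.39 and 9.43 at 0.95 (0.78, adjusted p = 0.039; lost in 10 of 15 fits, up to 0.138 without 0.95 replicate 3). TIR4, a cell wall mannoprotein made under low oxygen, fell by 0.67 (adjusted p = 0.00369) as the 1 called gene of 48 for cell wall proteins (2.08%, against 1.25% of all genes lower).

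Of 78 meiosis and sporulation genes, 7 were lower at 0.95 (8.97%, against 1.25% of all genes) and 1 was higher (1.28%, against 0.661%), with a median of 0.01. The gene called higher was MCD1, a cohesin subunit that acts in mitosis, named after its values were seen (0.48, adjusted p = 0.0379, held in 5 of 15 fits that left out 1 array). SPS1, a kinase of spore formation, had 6.95, 7.12 and 7.28 at 0.32 and 5.93, 5.75 and 5.59 at 0.95, 2.56-fold lower (-1.36, standard error 0.13, adjusted p = 0.000352). REC102, which acts in the formation of meiotic double-strand breaks, went from 6.54, 7.02 and 7.05 to 5.86, 5.97 and 5.93 (-0.95, standard error 0.14, adjusted p = 0.00369). These genes had separate arrays and passed in all 15 fits that left out 1 array. SPS4, a sporulation gene, fell by 0.83 (adjusted p = 0.021; 0.105 without 0.95 replicate 2). SPO19, a meiosis-specific prospore protein, fell by 1.10 (adjusted p = 0.039; lost in 10 of 15 fits, up to 0.152 without 0.95 replicate 3), from 5.75, 6.09 and 5.99 to 5.15, 4.76 and 4.62, the last 3 of which are below background. Leaving out 1 array at a time gave 2 to 10 genes of the list lower, with 2 lower and 0 higher without 0.32 replicate 3 and 10 lower without 0.68 replicate 1.

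Of 156 ribosome biogenesis genes, 2 were lower (1.28%), a share close to the 1.25% of all genes, and 0 were higher. Their median was -0.15 and 125 differences were below 0. Arrays were separate in that direction in 67 of the 156 genes, a larger share than the 12.7% of all genes. The means over the list overlapped between the strengths, with 11.27, 11.18 and 11.02 at 0.32 and 10.90, 11.01 and 11.11 at 0.95. REA1, the large ATPase that remodels precursors of the 60S subunit, went from 13.35, 13.24 and 13.30 at 0.32 to 12.58, 12.70 and 12.78 at 0.95 (-0.61, standard error 0.08, adjusted p = 0.00298), a separation held in all 15 fits. BMS1, a GTPase of the 40S pathway, fell by 0.46 (adjusted p = 0.039; lost in 12 of 15 fits, up to 0.143 without 0.95 replicate 2). Leaving out 1 array at a time gave 1 to 24 genes of the list lower and 0 higher, with 24 lower without 0.68 replicate 1. None of 129 cytoplasmic ribosomal protein genes (median -0.02), 73 mitochondrial ribosomal protein genes (0.05), 31 genes for RNA polymerase I and III subunits (-0.18), 10 histone genes (0.03), 13 Ty open reading frames (0.01) or 30 genes of other acetyltransferases and deacetylases (-0.05) passed. Of all genes, 1.91% passed in either direction.

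In amino acid and nitrogen metabolism the calls were single genes. UGA3, the activator of genes for 4-aminobutyrate use, had 8.86, 8.69 and 8.96 at 0.32 and 8.23, 8.26 and 8.34 at 0.95 (-0.56, standard error 0.07, adjusted p = 0.00318). It was the 1 called of 40 nitrogen catabolite and permease genes (2.5%, against 1.25% of all genes lower). ASN1, an asparagine synthetase, fell by 0.40 (adjusted p = 0.0277, or 0.11 without 0.95 replicate 2). It was the 1 called of 68 amino acid biosynthesis genes under Gcn4p (1.47%, close to the 1.25% of all genes lower). HIS3, a target of Gcn5p in histidine synthesis, did not pass, with 13.06, 12.88 and 11.82 at 0.32 and 12.86, 12.89 and 12.84 at 0.95. Replicate 3 of 0.32 was the low array (difference 0.28, 95% interval -0.23 to 0.78). The paper's fall in HIS3 mRNA was read by RT-PCR in medium with 3-aminotriazole, which is not named for these arrays. PHM6, a phosphate-regulated gene, fell by 0.65 (adjusted p = 0.0341, or 0.143 without 0.95 replicate 2) as the 1 called of 27 genes of the phosphate regulon (3.7%, against 1.25% of all genes lower). SPL2, another gene of it, differed by -0.67 and did not pass (adjusted p = 0.122). Against wild-type, PHM6 and SPL2 already stood at -0.64 (adjusted p = 0.0337) and -1.83 (adjusted p = 0.00052) at 0.32.

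Several called genes were on no list. COS12 had 6.40, 6.30 and 6.46 at 0.32 and 7.58, 7.51 and 7.32 at 0.95 (2.11-fold higher, log2 difference 1.08, standard error 0.15, adjusted p = 0.00328). YGL262W, its neighbour in the gene order, named after its values were seen, rose by 0.66 (adjusted p = 0.00662) from a level below background at 0.32. IDH1 and NCE103 are the other neighbouring pair among the 104 called genes, and they are transcribed away from each other. YMR230W-A, of unknown function, had 9.24, 9.23 and 9.54 at 0.32 and 8.0, 7.90 and 7.81 at 0.95 (2.71-fold lower, adjusted p = 0.00905). YIG1, which acts in glycerol metabolism, fell by 1.11 (adjusted p = 0.00405). COS12, YGL262W, YMR230W-A and YIG1 all passed in all 15 fits that left out 1 array. YNL194C (1.10, adjusted p = 0.0379) and YOR338W (0.90, adjusted p = 0.039) each lost their calls in 10 of the 15, with 0.148 and 0.143 without 0.95 replicate 3. YLR108C, of unknown function, rose by 0.74 (adjusted p = 0.0185; 0.0947 without 0.95 replicate 2). INA1, a plasma membrane protein, had 11.71, 11.83 and 11.62 at 0.32 and 10.52, 10.81 and 11.05 at 0.95 (-0.92, adjusted p = 0.021; 0.0938 without 0.95 replicate 2), and the small open reading frame YBR196C-A fell by 0.85 (adjusted p = 0.0178; 0.0971 without 0.95 replicate 2). MGA1, a protein related to heat shock factor, fell by 0.48 (adjusted p = 0.026; 0.086 without 0.32 replicate 1).

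Of the genes that the study singled out on these same arrays, several had wide intervals between these strengths. CWP1, a cell wall mannoprotein, differed by 1.51 (95% interval 0.66 to 2.36, adjusted p = 0.0706) and RTC3, a protein linked to RNA metabolism, by 1.2 (0.44 to 1.97, adjusted p = 0.109). ALG13, of N-glycan synthesis, differed by 0.58 (0.26 to 0.90, adjusted p = 0.0682), STF1, which regulates ATP synthase, by 0.56 (-0.03 to 1.14, adjusted p = 0.32) and RRT5 by -1.14 (-1.84 to -0.44, adjusted p = 0.0989). The mean of RRT5 at 0.95, 4.83, was below background. ETR1, an enoyl reductase of mitochondrial fatty acid synthesis, differed by 0.31 (-0.03 to 0.65, adjusted p = 0.345) and ATG38, an autophagy gene, by 0.20 (-0.23 to 0.63, adjusted p = 0.62). The paper names ETR1 and ATG38 as genes whose response levels off at low amounts of the mutant. Against wild-type they were already higher at 0.32, by 0.76 (adjusted p = 0.0286) and 1.15 (adjusted p = 0.0109). CWP1, RTC3, ALG13, STF1 and RRT5 did not pass against wild-type at 0.32. At 0.95, CWP1, ALG13 and STF1 did pass against wild-type, all higher (adjusted p = 0.019, 0.00413 and 0.019). RTC3 and RRT5 did not pass there either (adjusted p = 0.0627 and 0.0596). CWP1, RTC3, ALG13, STF1, RRT5 and ATG38 had arrays separate between the strengths, as 23.2% of all genes did, and ETR1 did not.

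The level at the intermediate strength was compared by position, with no test. The arrays of 0.68 were the least alike of the 5 strains, with correlations of 0.977 to 0.988. Their mean log2 signals were 10.38, 11.10 and 11.27 over the Msn2/Msn4 list and 11.19, 10.51 and 10.44 over the ribosome biogenesis list. Replicate 1 thus stood apart on both lists, and means at 0.68 average over it. Among the 104 genes, the mean at 0.68 lay between the means at 0.32 and 0.95 and nearer 0.32 in 39, and between them and nearer 0.95 in 32. In 25 it lay beyond 0.32 and in 8 beyond 0.95. HSP42, HSP78 and SSA4 had already reached the level of 0.95 at 0.68, with means of 11.52, 11.02 and 12.20 against 11.43, 10.99 and 12.13. HXT5, NCE103 and OLE1 stayed near 0.32, at 8.13, 12.09 and 12.20 against 7.82, 11.86 and 12.37 at 0.32. GLG1, FET3 and ECM22 were beyond 0.32, at 9.18, 12.13 and 8.90, and so was ROX1, at 8.21 against 8.59 at 0.32 and 9.38 at 0.95.

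**Figure D4:**
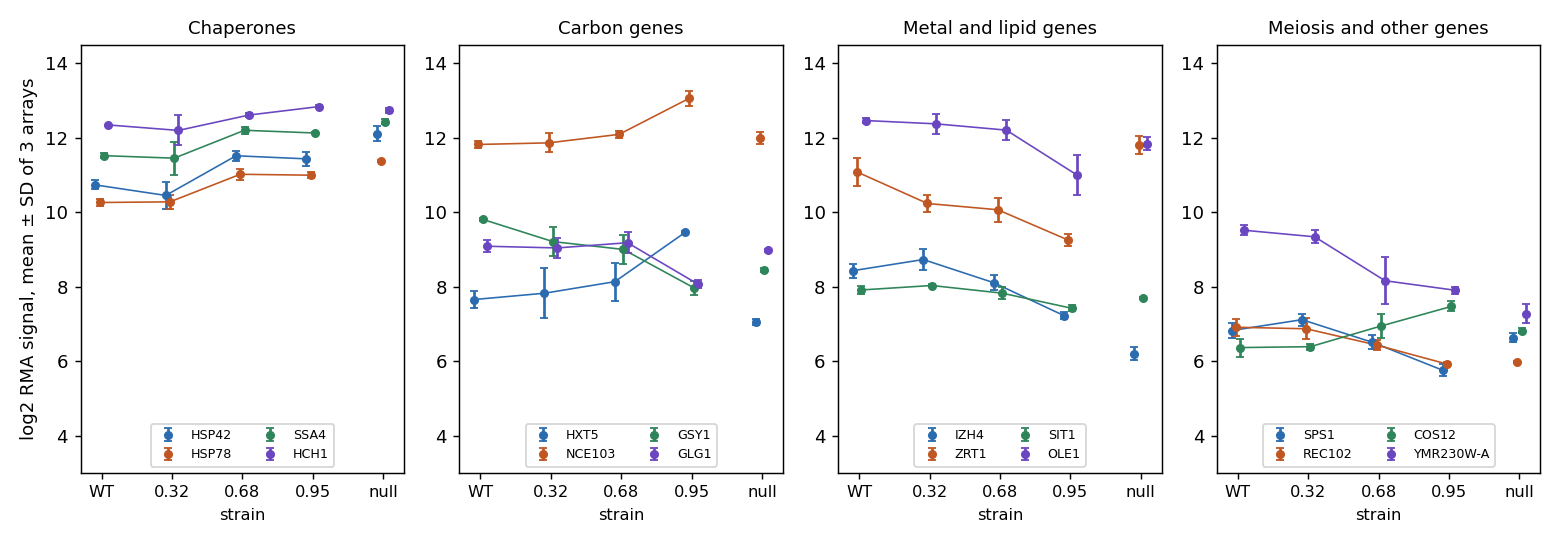
Mean log2 RMA signal of 16 called genes in the 5 strains (points, with SD of 3 arrays as bars; WT, wild-type; null, gcn5 null; lines join wild-type and the 3 promoter strengths). HSP42 is at 10.73 in wild-type, 10.45 at 0.32, 11.52 at 0.68 and 11.43 at 0.95, whereas NCE103 is at 11.82, 11.86, 12.09 and 13.06.

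Loss of the whole protein offers a reference that uses none of these 6 arrays, although it shares the estimate of the spread. In the gcn5 null strain against wild-type, 2232 of 5449 genes passed (41.0%), 1003 higher (18.4%) and 1229 lower (22.6%). Of the 104 genes, 60 also passed there with the same sign, which is 57.7% of the 104 and 2.69% of the 2232. By direction, 20 of the 36 rises were also higher in the null strain (55.6%), and 40 of the 68 falls also lower (58.8%). The chaperones were among the shared rises: HSP42 differed by 1.38 between null and wild-type (adjusted p = 4.83e-05) and HSP78 by 1.11 (adjusted p = 5.18e-06). Among the shared falls, IZH4 differed there by -2.23 (adjusted p = 3.91e-07), YMR230W-A by -2.24 (adjusted p = 2.06e-05), GSY1 by -1.37 (adjusted p = 0.000156) and FET3 by -0.82 (adjusted p = 4.01e-06).

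Another 13 genes passed in opposite directions, 5 higher at 0.95 and lower in the null strain, GCN5 included, and 8 the reverse. ZRT1, lower at 0.95 than at 0.32, rose by 0.72 on loss of GCN5 (adjusted p = 0.0139), with means of 11.08 in wild-type, 10.23 at 0.32, 9.25 at 0.95 and 11.80 in the null strain. ASN1 was higher in the null strain by 0.40 (adjusted p = 0.0016) and UGA3 by 0.23 (adjusted p = 0.0238). YOR338W went the other way, at -0.65 in the null strain (adjusted p = 0.0208). The remaining 31 genes did not pass in the null strain, 11 higher and 20 lower at 0.95. HXT5 had a difference of -0.61 there (adjusted p = 0.108), NCE103 of 0.17 (adjusted p = 0.329), SPS1 of -0.19 (adjusted p = 0.266), GLG1 of -0.11 (adjusted p = 0.613) and PYC1 of 0.09 (adjusted p = 0.364). Whether the difference in a gene between strengths departs from that in the null strain was not tested.

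**Figure D5:**
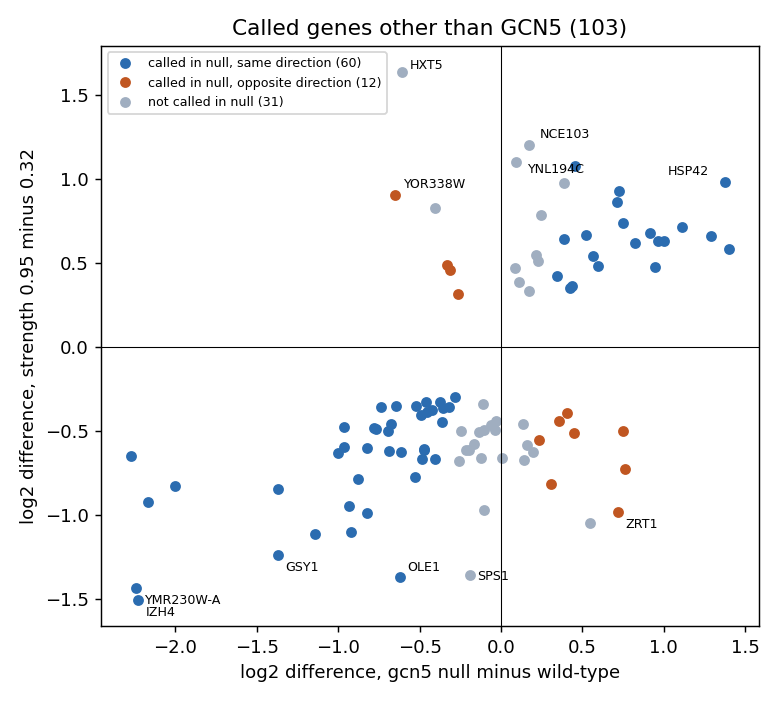
Log2 difference between strengths 0.95 and 0.32 (vertical) against that between gcn5 null and wild-type (horizontal) for the called genes other than GCN5. Blue points passed on both axes with the same sign (60), orange with opposite signs (12) and grey did not pass in the null strain (31), with ZRT1 and YOR338W among the orange points and HXT5, NCE103 and SPS1 among the grey.

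Set beside wild-type, which both strengths share as a reference, several of these genes passed at 0.95 and not at 0.32. HXT5 differed from wild-type by 0.17 at 0.32 (adjusted p = 0.884) and by 1.80 at 0.95 (adjusted p = 0.00164). NCE103 gave 0.04 (adjusted p = 0.947) and 1.24 (adjusted p = 0.00015), and OLE1 gave -0.09 (adjusted p = 0.934) and -1.46 (adjusted p = 0.00157). IZH4 was at 0.30 at 0.32 (adjusted p = 0.503) and at -1.21 at 0.95 (adjusted p = 0.000391). MGA1 had already fallen at 0.32, by 0.68 (adjusted p = 0.00314), and was at -1.16 at 0.95 (adjusted p = 1.63e-05).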

How the data were processed

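RNA from biological triplicates of 5 strains was hybridized to 15 Affymetrix Yeast 2.0 arrays. The deposited values are log2 signals that the authors made by RMA, which corrects background, applies quantile normalization and summarizes each probe set; all 15 arrays entered unchanged. A version of RMA and a genome build were not given in the sources used here. Of the probe sets, 5498 named an S. cerevisiae gene, and the brightest was kept for the 47 genes with several, which gave 5449 genes. Names came from the array's gene table and RefSeq. Background was set at 5.18, the 95th percentile of the mean signal of 1746 probe sets for S. pombe, and 223 genes had a mean below it.

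A limma 3.58.1 model (R 4.3.3) with a mean for each strain was fitted to all 15 arrays, and the Benjamini-Hochberg adjustment ran over 5449 genes with a threshold of 0.05. The median residual SD was 0.156, and the median half-width of the 95% interval of a difference was 0.27. The number of arrays limits the precision, and no depth applies. No pair of arrays held identical values. The procedure was tested on simulated data. The 30 gene lists were described by counts and medians. Named genes are GCN5, genes the study singles out, the 15 genes that rose most and the 15 that fell most among called genes with separate arrays, and for each list its called genes by size of difference, 4 at most. The comparison, its members and the lists were chosen with earlier results of these data known. Replicate numbers were not treated as pairs. Alternatives covered the arrays in the fit, normalization, probe sets, filters, variance moderation, array weights, thresholds and leaving out each array. Plots were drawn with matplotlib 3.10.9. No sequence or position is printed.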

Additional observations from a re-analysis of the deposited data

How the results depend on the processing

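Of the 104 genes called between the strengths, 13 of them over 2-fold and 60 shared with the null strain, the counts moved under several settings. With only the 6 compared arrays in the fit 6 genes passed, all 6 over 2-fold, and with the 9 gcn5-F221A arrays 7 passed, 5 over 2-fold. Array weights gave 691 genes, 23 over 2-fold and 437 shared with the null strain. With all probe sets of the array tested 37 were shared. With the replicate number as a block 56 genes passed, 53 of them among the 104 and 30 shared with the null strain. The deviations of same-numbered arrays correlated at -0.454, 0.291 and -0.573. Whether same-numbered arrays were handled together is not given, and correlations from so few arrays a strain cannot settle it. An unadjusted p under 0.05 with over 2-fold gave 32 genes, 31.2% of them lower against 65.4% of the 104, and 6 shared with the null strain. A test against a fold of 1.2 gave 4 genes, 4 over 2-fold and 1 shared. Leaving out 1 array at a time gave 32 to 299 genes, 10 to 48 over 2-fold and 17 to 174 shared with the null strain. GCN5 passed in the same direction under every setting tried. No named gene that passed changed sign, whereas FRE1 and HIS3, which did not pass, did. Falls outnumbered rises among the 104 but not without 0.32 replicate 2 (93 higher, 57 lower) or by unadjusted p and over 2-fold (22 higher, 10 lower). The medians of 5 lists crossed 0 with 1 array left out, ranging from -0.06 to 0.02 for meiosis, -0.07 to 0.09 for Ty, -0.03 to 0.06 for ergosterol and fatty acid, -0.02 to 0.03 for cell wall and -0.04 to 0.04 for glycolysis genes. The number of arrays, and signals near background for LSO1, SPO19, RRT5, YGL262W and YNL194C, limit the precision.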
